A study of Mus musculus with 12 samples.

Results

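The 9 complement components described here are the C1q chains *C1qa*, *C1qb* and *C1qc*, the cascade proteins *C4b*, *C2*, *C3* and *Cfb*, the inhibitor *Serping1* and the receptor *C3ar1*. They were picked by gene symbol from the 39017 genes of the deposited table, and each symbol matched 1 identifier. Transcripts were measured by RNA sequencing of whole adrenals, trimmed of adherent fat, from 12 female mice aged 10 to 11 weeks on a mixed sv129-C57Bl/6 background. The 6 control mice (Ctrl) carried AS Cre/+, in which Cre recombinase is expressed from the *Cyp11b2* (AS) locus of zona glomerulosa (zG) cells. The 6 βCat-GOF mice carried AS Cre/+ together with Ctnnb1 fl(ex3)/+, so that Cre removes exon 3 of 1 *Ctnnb1* allele and β-catenin is stabilized in those cells. Cre was thus present in both groups, and the zG is only a part of the gland that was sequenced. The paper reports a markedly expanded zG in female βCat-GOF adrenals. It also describes zG cells as moving inward into the next zone of the cortex. The cell make-up of the gland may therefore differ between the groups, and its part in the values below was not tested. The comparison asks which transcripts of the gland differ when β-catenin is stabilized in the zG.

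Complement is a cascade of plasma proteins that marks particles and cells for removal. In the classical pathway C1q binds a target, C1r and C1s cleave C4 and C2, and the resulting convertase cleaves C3. In the alternative pathway factor B (*Cfb*) and factor D build a second convertase around C3b. C3 cleavage releases the peptide C3a, whose receptor is encoded by *C3ar1*, and *Serping1* encodes the C1 inhibitor, which blocks C1r and C1s. Tissue macrophages are the usual source of C1q, while the liver makes most of the circulating C3, C4, C2 and factor B.

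Between 14090378 and 25625494 counts fell on genes per Ctrl library, and between 13484675 and 24951480 per βCat-GOF library, so that 3 counts correspond to 0.117 to 0.222 CPM (the share of a library's counts, on a common scale). Of 8 zG markers 7 were higher in βCat-GOF mice and 4 of these were called (*Dab2* and *Agtr1b* among them), against 2.16% of all tested genes called higher. *Cyp11b2*, whose locus drives Cre, was at 5162 ± 2063 normalized counts in Ctrl and 4544 ± 2824 in βCat-GOF mice (adjusted p = 0.82). All 6 Ctrl labels begin with one number, and 5 of the 6 βCat-GOF labels begin with another, so that a litter or batch marked by it cannot be told apart from the genotype. In 3 pairs of labels (Ctrl 1 and 2, Ctrl 3 and 4, βCat-GOF 1 and 2) the stem is the same, which the labels do not explain. The study describes the libraries as separate mice, and each was taken as 1 mouse here. The counts of these 3 pairs differed by 39.2 to 42.8 times the counting noise (chi-square per degree of freedom), and those of the other 27 pairs within a group by 15.8 to 136 times, so that no pair agreed within counting noise. βCat-GOF 4 was the only library with liver transcripts at more than trace level, with *Alb* at 1202 normalized counts against at most 2.93 in the other 11 mice. The p-values describe the spread between these libraries. Since whole glands were used, fewer cells of a type and less RNA per cell cannot be told apart.

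Of the 9 components, 4 matched an entry of the promoter table used and their windows are shown. They include 2 of the 3 C1q chains, the most abundant component *C3*, and *C3ar1*, the single component that passed the adjusted test. Each runs from 250 bases before to 50 bases after the annotated start, on the minus strand, from RefSeq on GRCm38.p6. Capitals mark matches, on either strand, to the PU.1 core (GAGGAA), the interferon-stimulated response element (ISRE) core (AAANNGAAA), a C/EBP motif (TTGCNNAA), the TATA box (TATAAA) or the NF-kB consensus.
C1qb: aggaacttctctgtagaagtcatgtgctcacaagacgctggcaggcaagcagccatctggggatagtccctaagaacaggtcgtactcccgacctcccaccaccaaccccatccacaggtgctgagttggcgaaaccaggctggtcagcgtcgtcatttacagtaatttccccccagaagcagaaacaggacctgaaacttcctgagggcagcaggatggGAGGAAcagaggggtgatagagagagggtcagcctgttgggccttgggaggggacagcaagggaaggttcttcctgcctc
C1qc: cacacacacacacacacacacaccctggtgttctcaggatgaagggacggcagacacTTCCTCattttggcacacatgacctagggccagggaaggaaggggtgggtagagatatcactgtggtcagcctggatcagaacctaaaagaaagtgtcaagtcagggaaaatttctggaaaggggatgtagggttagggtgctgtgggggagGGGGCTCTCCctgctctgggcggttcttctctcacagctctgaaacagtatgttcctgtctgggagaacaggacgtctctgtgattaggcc
C3: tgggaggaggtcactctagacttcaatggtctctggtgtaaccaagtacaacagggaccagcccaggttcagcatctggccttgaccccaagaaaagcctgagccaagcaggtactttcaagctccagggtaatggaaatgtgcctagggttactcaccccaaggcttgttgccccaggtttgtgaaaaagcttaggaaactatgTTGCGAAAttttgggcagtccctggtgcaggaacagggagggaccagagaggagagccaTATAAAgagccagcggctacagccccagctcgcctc
C3ar1: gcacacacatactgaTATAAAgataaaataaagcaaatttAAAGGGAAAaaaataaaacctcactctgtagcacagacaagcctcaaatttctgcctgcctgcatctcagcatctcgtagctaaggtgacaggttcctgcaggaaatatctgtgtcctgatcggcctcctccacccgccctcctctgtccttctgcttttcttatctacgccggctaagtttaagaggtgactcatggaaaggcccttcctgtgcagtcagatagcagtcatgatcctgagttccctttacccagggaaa
The window of *C1qb* (chr4:136886151-136886450) holds the PU.1 core 30 bases before the start. That of *C1qc* (chr4:136892865-136893164) holds it on the opposite strand, beginning 193 bases before the start, and an NF-kB match 41 bases before it. In *C3* (chr17:57228087-57228386) the C/EBP motif lies 45 bases before and TATAAA lies 14 bases after the annotated start. In *C3ar1* (chr6:122856108-122856407) TATAAA lies 235 bases and the ISRE core 210 bases before the start. Such matches are common among 32851 promoter windows of the same length: 28.28% hold the PU.1 core, 10.55% the ISRE core, 10.8% the C/EBP motif, 13.62% TATAAA and 8.459% the NF-kB consensus. The TCF/LEF letters CTTTGA, found in 16.0% of the windows, were searched for too and none of these 4 windows holds them. The windows of *C1qa*, *C2*, *C4b*, *Cfb* and *Serping1* were not analysed here.

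Of the 9 components, 8 had enough counts to be tested and *Cfb* did not. *C3ar1* fell to 0.554 of its control level in βCat-GOF adrenals and was the only component called, at an adjusted p under 0.05. *C3* was 1.68-fold higher on average and the 3 C1q chains had log2 fold changes of -0.40 to -0.35, but none of these passed the adjusted test. The log2 fold changes of *C4b*, *C2* and *Serping1* lay between -0.14 and 0.20. By edgeR, 1 component was called lower and 0 were called higher, against 1.52% and 2.16% of all 14953 tested genes. At an unadjusted p under 0.05 the counts were 4 lower and 1 higher, against 10.7% and 9.73% of all genes, and 3 of those 4 are the C1q chains, which vary together. DESeq2 also called *C3ar1* alone. No component had every βCat-GOF mouse below every Ctrl mouse, which holds for 1.16% of all genes, or above, which holds for 1.61%. The median log2 fold change of the 8 components was -0.25, and over all tested genes it was 0.00.

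**Figure D1:**
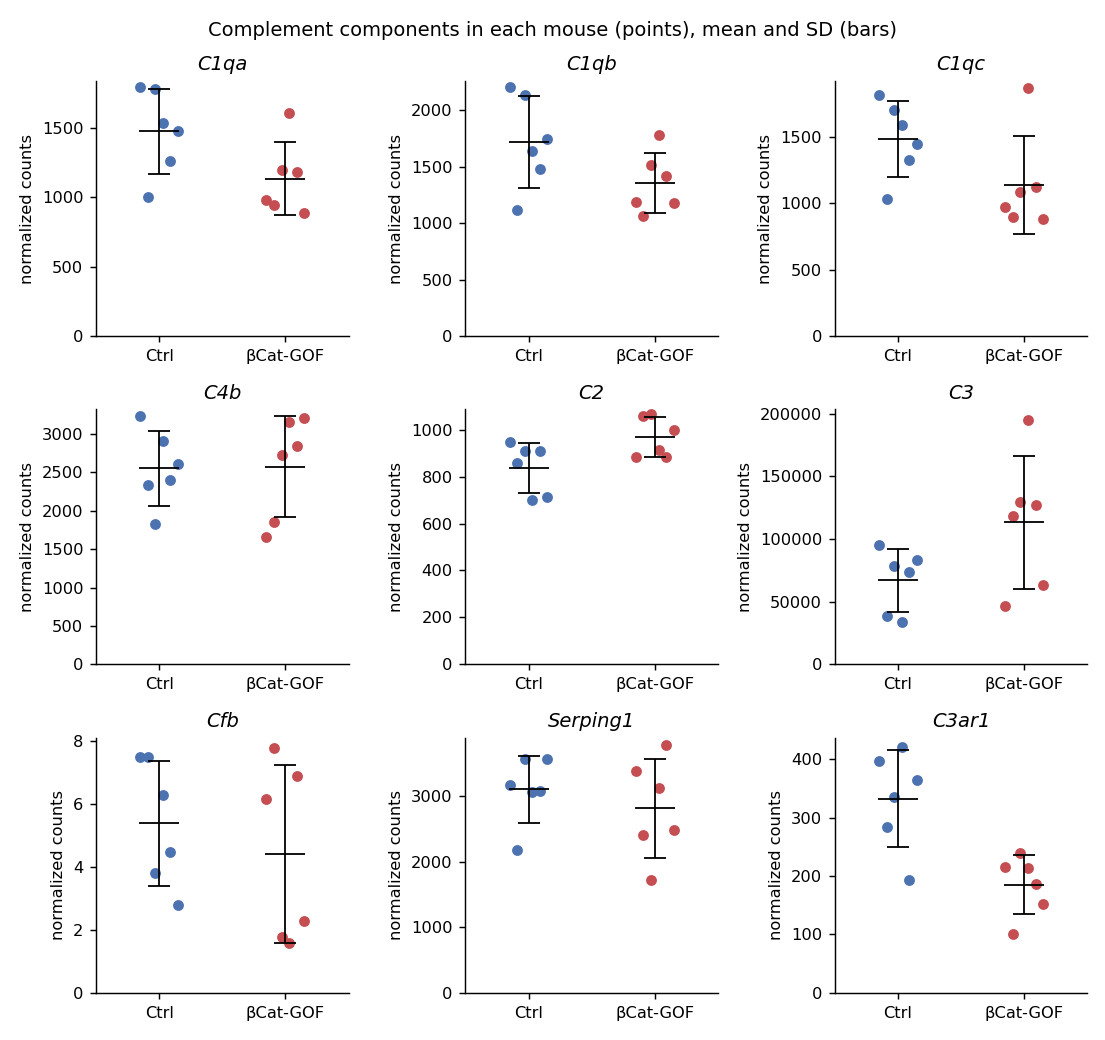
Normalized counts (vertical axes, each starting at 0) of the 9 complement components in 6 Ctrl (blue) and 6 βCat-GOF (red) mice, 1 point per mouse, with the mean and SD as black bars. The groups overlap in every panel, and *C3ar1* is lowest relative to control, with βCat-GOF mice between 101 and 239.8 and Ctrl mice between 193 and 420.1.

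The C1q chains assemble into 1 molecule, and their genes lie side by side on chromosome 4 of mm10: *C1qb* at chr4:136880129-136886187, *C1qc* at chr4:136889804-136893065 and *C1qa* at chr4:136895917-136898803, all on the minus strand. *C1qa*, the A chain, ranged from 1000 to 1792 normalized counts (counts divided by a size factor for each library) in Ctrl mice, with a median of 1506. In βCat-GOF mice it ranged from 887.5 to 1607, with a median of 1082. Thus 5 of the 6 βCat-GOF mice lay below the control median and 3 lay below every control, while βCat-GOF 4 stood with the high controls. The means were 1474 ± 306 and 1134 ± 264 (SD, n = 6 mice each), and the log2 fold change was -0.39 ± 0.16 (SE, 95% interval -0.73 to -0.04, adjusted p = 0.197).

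*C1qb*, the B chain, ranged from 1114 to 2200 normalized counts in Ctrl mice (median 1690) and from 1058 to 1779 in βCat-GOF mice (median 1304). Its log2 fold change was -0.35 ± 0.16 (SE, adjusted p = 0.241). *C1qc*, the C chain, ranged from 1028 to 1815 in Ctrl mice (median 1520) and from 877.2 to 1865 in βCat-GOF mice (median 1027). Here 5 of the 6 βCat-GOF mice were at 1122 or below, whereas βCat-GOF 4, at 1865, was above every control. The log2 fold change of *C1qc* was -0.40 ± 0.18 (SE, adjusted p = 0.244), and without βCat-GOF 4 it was -0.595 and passed the test (adjusted p = 0.0327).

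The chains kept nearly the same proportions in every mouse. *C1qb* was 1.07 to 1.23 times *C1qa* in Ctrl and 1.11 to 1.32 times in βCat-GOF mice, in counts not corrected for length. *C1qc* was 0.955 to 1.05 times *C1qa* in Ctrl and 0.902 to 1.16 times in βCat-GOF mice. The counts of the 3 chains together were 4677 ± 989 in Ctrl and 3624 ± 884 in βCat-GOF mice, a log2 fold change of -0.375 ± 0.167 (SE, adjusted p = 0.225). Ctrl 2 was the lowest control for all 3 chains, and its label stem is that of Ctrl 1, the highest. The sizes depended on such pairs: with Ctrl 1, Ctrl 3 and βCat-GOF 1 left out, the log2 fold changes of *C1qa*, *C1qb* and *C1qc* were -0.188, -0.114 and -0.215, and with their partners left out instead they were -0.43, -0.42 and -0.41.

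*C4b* and *C2* supply the parts of the classical C3 convertase, and neither was called. *C4b* (chr17:34728380-34743882) had 1825 to 3236 normalized counts in Ctrl mice (median 2506) and 1661 to 3210 in βCat-GOF mice (median 2782), ranges that cover one another almost wholly. The means were 2550 ± 489 and 2574 ± 661, and the interval of the log2 fold change ran from -0.37 to 0.37 (adjusted p = 0.998). Its neighbour *C4a* is 96% identical over 5378 of 5379 transcript bases, so uniquely mapped reads may be divided unevenly between the 2 genes. *C4a* was at 1588 ± 590 in Ctrl and 1338 ± 418 in βCat-GOF mice (adjusted p = 0.608), and for both genes summed the log2 fold change was -0.09 (adjusted p = 0.831).

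*C2* (chr17:34862604-34898265) ranged from 698.5 to 945 normalized counts in Ctrl mice (median 882) and from 882 to 1067 in βCat-GOF mice (median 955.5). The 2 lowest controls, Ctrl 4 and Ctrl 6, lay well below all other mice, and 3 βCat-GOF mice lay above every control. The means were 838 ± 107 and 967 ± 84.8, and the log2 fold change of 0.20 ± 0.09 (SE, 95% interval -0.004 to 0.40) did not pass the test (adjusted p = 0.255).

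**Figure D2:**
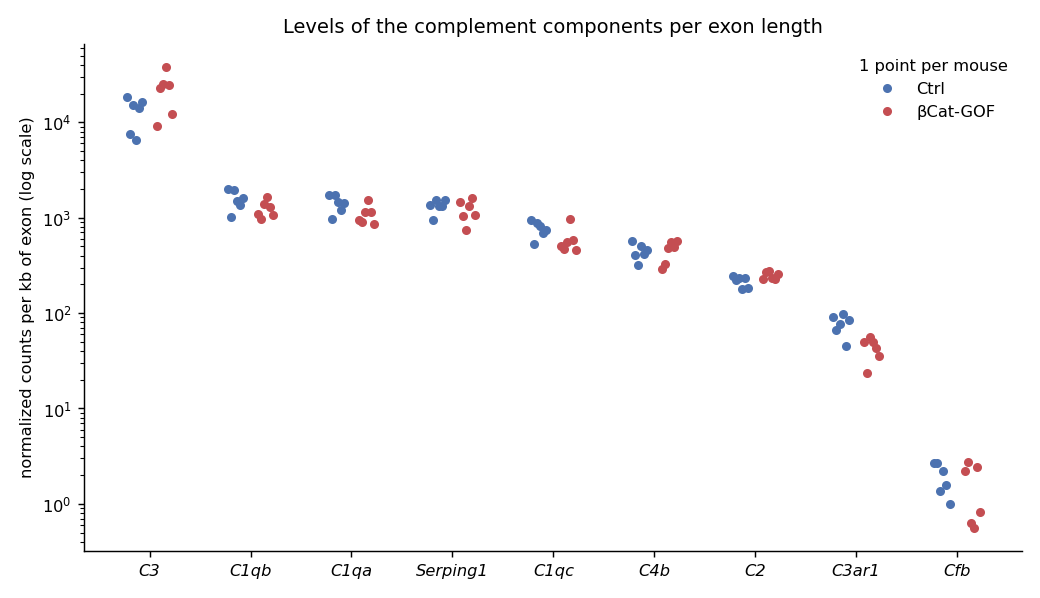
Normalized counts per kb of exon (log scale) for each component in 6 Ctrl (blue) and 6 βCat-GOF (red) mice, 1 point per mouse, ordered by the control mean. *C3* lies about 10.3 times above *C1qb*, the next component, and *Cfb* lies far below all others.

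*C3*, the protein on which all routes of activation meet, was by far the most abundant component (chr17:57203970-57228136, minus strand). In the 6 Ctrl mice, taken by number, it had 95560, 38830, 78630, 33570, 73450 and 83630 normalized counts. In the 6 βCat-GOF mice it had 46850, 118600, 129800, 195300, 127100 and 63550. Thus 4 βCat-GOF mice were above every control, while βCat-GOF 1 and 6 were within the control range. The means were 67280 ± 25220 and 113500 ± 53120, and the log2 fold change of 0.75 ± 0.34 (SE, 95% interval 0.02 to 1.47) did not pass the test (adjusted p = 0.231). *C3* was between the 13th and 29th most counted gene of the adrenal in Ctrl mice and between the 6th and 19th in βCat-GOF mice.

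The highest *C3* value was that of βCat-GOF 4, the library with *Alb* at 1202 normalized counts and a sum of 1588 over 6 liver markers, against 10.7 to 25.9 in the other βCat-GOF mice and 5.33 to 20.9 in Ctrl mice. In the same library *C3* was at 195300. Without this mouse the log2 fold change of *C3* was 0.52 (adjusted p = 0.396). *C3* is also expressed in fat, and the 8 adipocyte markers had a summed level of 1342 to 12130 in Ctrl and 3552 to 10760 in βCat-GOF mice. Of the 7 tested adipocyte markers 3 were lower and 4 higher in βCat-GOF mice, and 0 were called. The markers *Car3* (3091 ± 2604 in Ctrl and 3838 ± 2067 in βCat-GOF mice) and *Plin1* (823 ± 61.2 and 1299 ± 570) had higher means there. The mean of *Adipoq* was lower (660 ± 684 and 374 ± 155). The part of liver or fat RNA in the *C3* values was not tested. Here too the label pairs mattered: the log2 fold change was 1.14 (adjusted p = 0.0853) without Ctrl 1, Ctrl 3 and βCat-GOF 1, and 0.44 (adjusted p = 0.605) without their partners.

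*Cfb*, factor B of the alternative pathway (chr17:34856374-34862518), was listed at 1.58 to 7.80 normalized counts per mouse, with no more than 9 counts in any library, and was below the filter. Its means were 5.40 ± 1.99 in Ctrl and 4.43 ± 2.84 in βCat-GOF mice. These values do not give its level, since 79.5% of its exons coincide with exons of *Gm20547*, a gene annotated on the same strand whose exons are wholly covered by *C2* and *Cfb* and which had 0 counts in all 12 mice. How reads on shared exons were counted is not stated. Only 579 of the 2825 exon bases of *Cfb* and 2216 of the 3872 of *C2* lie outside *Gm20547*. If no read on shared exons was counted, all counts of a gene fall on these bases. The control levels would then be 9.32 ± 3.43 for *Cfb* and 378 ± 48.1 for *C2*, in normalized counts per kb.

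*Serping1* (chr2:84765387-84775444), the C1 inhibitor, ranged from 2183 to 3574 normalized counts in Ctrl mice (median 3119) and from 1720 to 3785 in βCat-GOF mice (median 2803). The βCat-GOF mice thus spread to both sides of the controls. The means were 3103 ± 507 and 2819 ± 754, and the log2 fold change was -0.14 ± 0.17 (SE, 95% interval -0.52 to 0.23, adjusted p = 0.693).

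*C3ar1*, the receptor for C3a on myeloid cells, is a gene of 2 exon blocks at chr6:122847138-122856161. In the 6 Ctrl mice, by number, it had 396.2, 284.2, 334.5, 420.1, 193.1 and 364.6 normalized counts. In the 6 βCat-GOF mice it had 214.9, 101.4, 239.8, 213.5, 186.3 and 152.7. All 6 βCat-GOF mice were below the control median and below 5 of the 6 controls, and the groups overlapped only through Ctrl 5. The means were 332 ± 83.1 and 185 ± 50.5, and the log2 fold change was -0.85 ± 0.22 (SE, 95% interval -1.32 to -0.38, adjusted p = 0.0468). DESeq2 gave an adjusted p of 0.0049. The edgeR value is close to the threshold. Leaving out 1 mouse at a time kept the log2 fold change between -0.968 and -0.715, and the call held without Ctrl 5, βCat-GOF 1 or βCat-GOF 3 and was lost without each of the other 9 mice. It was also lost with the libraries of a shared label stem summed (adjusted p = 0.0906) or with 1 library of each such pair left out (adjusted p = 0.101 and 0.201).

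**Figure D3:**
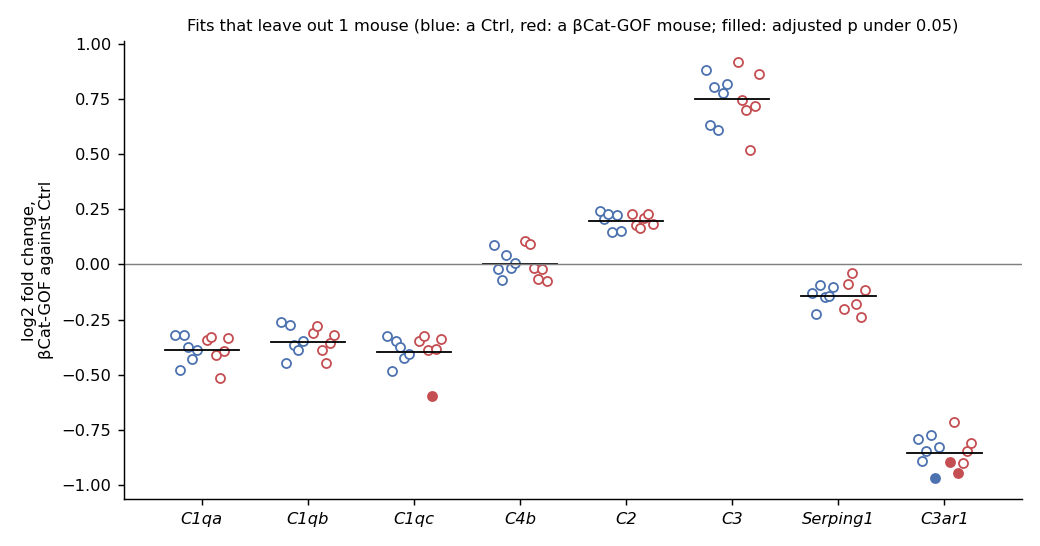
Log2 fold change of each tested component when 1 Ctrl (blue) or 1 βCat-GOF (red) mouse is left out, with the fit of all 12 mice as a black line and filled points for an adjusted p under 0.05. *C3ar1* stays between -0.968 and -0.715, *C3* between 0.52 and 0.92, and *C4b* lies on both sides of 0.

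Per kb of exon, the control means ran from *C3* (13080 ± 4903 normalized counts per kb) through *C1qb* (1579 ± 375), *C1qa* (1418 ± 294), *Serping1* (1334 ± 218), *C1qc* (769 ± 147), *C4b* (448 ± 85.8), *C2* (216 ± 27.6) and *C3ar1* (77.2 ± 19.3) to *Cfb* (1.91 ± 0.70). The *C2* and *Cfb* levels are subject to the overlap given above. Most neighbours in this order kept it in each of the 12 mice, with *C3* a median of 10.3 times *C1qb* and *C4b* a median of 2.01 times *C2*. The exceptions were *C1qa* and *Serping1*, of which *C1qa* was higher in 6 of 12 mice, and *C1qc* and *C4b*, of which *C1qc* was higher in 11 of 12. In βCat-GOF mice *C3* was at 22080 ± 10330 per kb and *C3ar1* at 42.9, and the control order was kept there except that *Serping1* (1212) came before *C1qa* (1090).

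The other complement genes were 50 listed genes, of which 49 were in the table and 32 could be tested. Of these, 18 were lower and 14 higher in βCat-GOF adrenals, 1 was called lower and 0 were called higher by edgeR, and at an unadjusted p under 0.05 there were 7 lower and 4 higher. DESeq2 called 3 of them lower. Of all 14953 tested genes 50% were lower, and edgeR called 1.52% lower and 2.16% higher. At an unadjusted p under 0.05, 10.7% of all genes were lower and 9.73% higher. Among the other complement genes edgeR called *Itgax*, which encodes the αX chain of the iC3b receptor CR4 (CD11c). It had 143.3 to 261.3 normalized counts in Ctrl mice and 58.5 to 109.1 in βCat-GOF mice, with no overlap, and its log2 fold change was -1.39 ± 0.20 (SE, adjusted p = 0.002).

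Among the 8 tested receptors, 5 were lower and 3 higher, with a median log2 fold change of -0.25. *C5ar1*, the receptor for the peptide C5a, was at 73.0 ± 20.8 in Ctrl and 46.1 ± 7.84 in βCat-GOF mice, a log2 fold change of -0.67 (adjusted p = 0.104), and it was called by DESeq2 (adjusted p = 0.0492). *Itgb2*, the β2 chain shared by CR3 and CR4, was at 375 ± 70.8 and 275 ± 72.5 (adjusted p = 0.147). *Calr*, which encodes calreticulin, a C1q-binding protein of the endoplasmic reticulum, was at 11840 ± 1172 and 15880 ± 4804 (adjusted p = 0.208).

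For classical and lectin initiation 9 genes were tested, of which 6 were lower and 3 higher, with a median of -0.07 and 0 called by edgeR (1 lower and 2 higher at an unadjusted p under 0.05). *Colec11*, a collectin that starts the lectin pathway, was at 113 ± 26.2 in Ctrl and 72.7 ± 17.4 in βCat-GOF mice, a log2 fold change of -0.64, called by DESeq2 (adjusted p = 0.0301) and not by edgeR (adjusted p = 0.0958). The lectin pathway proteases lay the other way, with *Masp1* at 1101 ± 218 and 1587 ± 553 (adjusted p = 0.204) and *Masp2* at 62.6 ± 31.2 and 101 ± 44.3 (adjusted p = 0.297). The ficolin *Fcna* was at 33.9 ± 10.3 and 51.8 ± 14.3 (adjusted p = 0.198). Transcripts of the mannose-binding lectins *Mbl1* and *Mbl2* were at or near 0.

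The regulators and the late components were not called by either tool in either direction. In the alternative pathway *Cfd*, factor D, also called adipsin, was at 3202 ± 2933 and 4171 ± 2557 (adjusted p = 0.762), and *Cfp*, properdin, was at 170 ± 43.8 and 171 ± 33.3 (adjusted p = 0.982). Of the components of the membrane attack complex, only *C6* (226 ± 49.4 and 264 ± 205), *C7* (349 ± 106 and 359 ± 125) and *C8g* (13.9 ± 6.35 and 13.3 ± 3.71) could be tested, 1 lower and 2 higher with a median of 0.04 and 0 at an unadjusted p under 0.05.

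Among 9 tested inhibitors 5 were lower and 4 higher (median -0.23, with 1 lower at an unadjusted p under 0.05). *Cd55*, decay-accelerating factor, ranged from 311.0 to 1277 normalized counts in Ctrl mice and from 192.9 to 942.3 in βCat-GOF mice. Ctrl 1 was the low control and βCat-GOF 1 the high βCat-GOF mouse. Its log2 fold change was -1.20 ± 0.39 (SE, adjusted p = 0.107 by edgeR, 0.0707 by DESeq2). Without βCat-GOF 1 it was -1.62 (adjusted p = 0.0126) and without Ctrl 1 it was -1.38 (adjusted p = 0.0422). Each of these fits leaves out the mouse of its group that lay nearest the other group. *Cd55* was not called with any other single mouse left out. *Cd59a*, which blocks the membrane attack complex, was at 4102 ± 1540 and 3260 ± 1251 (adjusted p = 0.493). *Cd46*, a cofactor for cleavage of C3b, was at 50.6 ± 15.3 and 36.7 ± 12.7 (adjusted p = 0.383), and *Vtn*, vitronectin, was at 13.1 ± 5.12 and 22.6 ± 18.9 (adjusted p = 0.404).

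**Figure D4:**
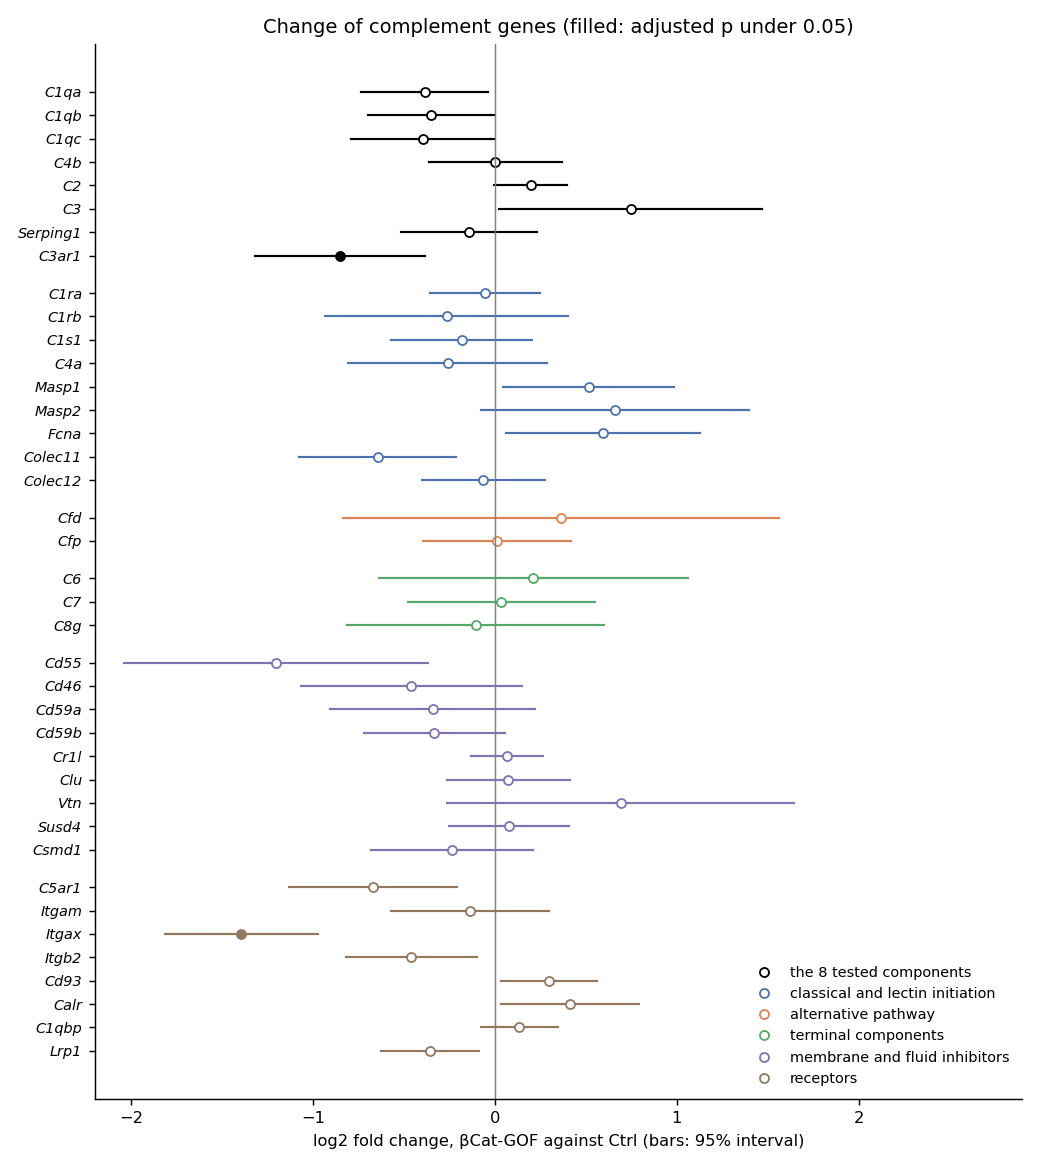
Log2 fold change with its 95% interval (horizontal axis) for the 8 tested components in black and 31 other tested complement genes in colour by role, with filled points for an adjusted p under 0.05. Only *C3ar1* and *Itgax* are filled, both lower in βCat-GOF adrenals.

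Macrophage markers were mostly lower as well, though unequally. Of 14 tested macrophage markers 10 were lower and 4 higher, 2 were called lower and 0 higher by edgeR, 6 were lower and 2 higher at an unadjusted p under 0.05, and the median log2 fold change was -0.36. Over all tested genes 50% were lower, 1.52% were called lower and 2.16% higher. At an unadjusted p under 0.05 the shares of all genes were 10.7% lower and 9.73% higher. The called markers, named after their values were seen, were *Adgre1* (F4/80), at 359 ± 76.9 in Ctrl and 210 ± 60.0 in βCat-GOF mice (log2 fold change -0.78, adjusted p = 0.0459), and the mannose receptor *Mrc1*, at 719 ± 91.8 and 545 ± 74.1 (-0.41, adjusted p = 0.0495). *Csf1r*, the receptor that macrophages need to survive, was at 1037 ± 141 and 1124 ± 260 (0.11, adjusted p = 0.718). The 2 higher markers at an unadjusted p under 0.05, also named after their values were seen, were *Lyve1*, at 68.8 ± 20.0 in Ctrl and 131 ± 46.9 in βCat-GOF mice (0.91, adjusted p = 0.0702), and *Cd14*, at 220 ± 48.3 and 299 ± 72.5 (0.43, adjusted p = 0.203). *Lyz2* was at 6040 ± 2446 and 4820 ± 1339 (adjusted p = 0.469) and *Tyrobp* at 655 ± 196 and 435 ± 51.7 (adjusted p = 0.0901).

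The summed level of the 15 macrophage markers was 7740 to 14640 in Ctrl (median 9356) and 6199 to 10510 in βCat-GOF mice (median 9736). *Lyz2*, with means of 6040 in Ctrl and 4820 in βCat-GOF mice, had the largest share of this sum. Relative to this sum, the C1q chains were at 0.33 to 0.586 in Ctrl (median 0.425) and 0.305 to 0.534 in βCat-GOF mice (median 0.414). *C3ar1* was at 2.11 to 4.00 per 100 macrophage marker counts in Ctrl (median 3.20) and 1.59 to 3.10 in βCat-GOF mice (median 2.02). Both ratios overlapped between the groups. The part of macrophage number or state in the *C3ar1* and C1q values was not tested.

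Other cell types were read from lists of markers, to be set against 50% of all tested genes lower, 1.52% called lower and 2.16% called higher. At an unadjusted p under 0.05 the shares of all genes were 10.7% lower and 9.73% higher. All 8 endothelial markers were lower (median -0.17, 0 called by edgeR, 3 at an unadjusted p under 0.05), as were 7 of 8 adrenal medulla markers (median -0.35, 0 called, 2 at an unadjusted p under 0.05). Of 10 fibroblast and capsule markers 4 were lower and 6 higher (median 0.15), with 1 called higher. Of 5 tested lymphocyte markers 4 were lower and 1 was called lower (*Cd4*, 24.2 ± 9.52 and 9.49 ± 2.51, adjusted p = 0.033). The sum of all 9 listed lymphocyte markers, tested or not, was 89.9 to 156 in Ctrl and 56.3 to 132 in βCat-GOF mice. Of 4 tested neutrophil and monocyte markers 3 were lower and 0 were called by edgeR, also at an unadjusted p under 0.05. The sum of all 8 listed was 272 to 554 in Ctrl and 125 to 401 in βCat-GOF mice, and *Ly6g*, which defines neutrophils, was at 0 in all mice. Of 7 tested adipocyte markers 3 were lower and 4 higher (median 0.30, 0 called, 1 higher at an unadjusted p under 0.05), and of 8 adrenal cortex markers 4 were lower and 4 higher (median 0.07), with *Akr1b7* called higher. None of the 6 liver markers passed the filter.

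Interferon-stimulated genes and transcription factors tied to complement expression were also read. All 18 interferon-stimulated genes were lower in βCat-GOF adrenals and 11 were called (median -0.84), against 50% lower and 1.52% called lower among all tested genes. The summed level of these 18 genes was 13130 to 21340 in Ctrl and 10450 to 13640 in βCat-GOF mice. Among the 10 factors 3 were lower and 7 higher (median 0.10). *Spi1*, which encodes PU.1, was at 126 ± 44.0 and 85.7 ± 23.0 (-0.56, adjusted p = 0.227). The part of either in the component values was not tested. These lists share cells, so their counts are not separate observations.

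Genes that varied most like a component from mouse to mouse were found among 11423 tested genes with a mean of at least 100 normalized counts, after the mean of each group was removed. Over the 12 mice the mean of the C1q chains went most closely with *Rnaseh2c* (Pearson r 0.98, Spearman rho 0.92) and *Cyba* (r 0.96, rho 0.91), the p22phox subunit of the phagocyte oxidase. *Stra13*, *Supt4a* and *Bcl7c* followed. *C3* went with *Coq5* (r 0.89, rho 0.88), followed by *Mapt*, *Gla*, *Snf8* and *Snrpf*. For *C4b* the leading genes were *Bcat2* (r 0.93), *Stat6*, *Insr*, *Ppp4r1* and its copy *C4a* (r 0.91), and for *Serping1* they were *Ppfia4* (r 0.96), *Timp2*, *Igfbp6*, *Cxcl16* and *S100a6*. All values of a mouse come from 1 library and share its depth and RNA quality, so these correlations only describe the 12 mice.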

How the data were processed

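RNA was sequenced from whole adrenals of 6 Ctrl and 6 βCat-GOF mice, grouped by the genotype in the labels. Per the study's methods and the submitters' processing notes, the authors trimmed adapters with cutadapt, aligned to mm10 (STAR) and assigned unique alignments to genes with featureCounts 1.4.4. The deposited table holds the raw counts of 39017 genes. The annotation release and the strand setting are not given in the sources used here. A second deposited table holds a signal, the gene counts divided by 1 size factor per library, and was used for gene symbols. All tests used the counts, and 0 columns were left unmapped. Normalized counts are counts divided by size factors recomputed with DESeq2's median of ratios.

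Genes were tested with edgeR 4.0.16 in R 4.3.3 (TMM, filterByExpr, quasi-likelihood F test, two-sided, no covariates), with Benjamini-Hochberg adjustment over all 14953 genes that passed the filter, and a gene was called at an adjusted p under 0.05. On simulated counts for this comparison, with 200 of 14953 genes changed, edgeR found 90 of 100 genes changed 4-fold and 79 of 100 changed 2-fold, with 8 false calls. DESeq2 found 94 and 82 of them, with 34 false calls, and was the less strict in this simulation. The counts were drawn once, from a model fitted by edgeR, so how strict either tool is on the real counts was not tested. Alternatives were DESeq2 1.42.0, edgeR with DESeq2 size factors, no filter, at least 10 counts in every mouse, the study's additional cut-offs (fold above 1.4, base mean above 100), libraries of a shared label stem summed, and each mouse left out in turn. Leaving out 1 library of each shared stem, and summing *C4a* with *C4b* or *C2* with *Cfb* and *Gm20547*, were added after the data were seen.

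Gene positions and exon lengths came from GENCODE on GRCm38 (mm10), and promoter sequences from RefSeq on GRCm38.p6. A gene counted as a copy where 5% or more of the transcript aligned at 90% identity or more. The members and gene lists were chosen with earlier results of these data known. The rule for named genes took all 9 components, the called genes and at most 4 genes with the largest change in each other complement list, at most 4 markers with the highest level where a marker list is described, and the 5 genes most like a component. Outside this rule stand *Lyve1* and *Cd14*, named after their values were seen, and *Spi1*, *Ly6g*, *Mbl1*, *Mbl2* and *Gm20547*. Results on some listed genes are not reported here. Depth limits low genes, since 3 counts are 0.117 to 0.222 CPM. Figures were drawn with Python 3.11.15 and matplotlib 3.10.9.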

Additional observations from a re-analysis of the deposited data

Results flagged for a closer look

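In the 18 groups of 6 mice given by the 9 components, the highest and the lowest mouse were compared with the rest by Dixon's ratio, and chance sets apart about 1 in 20 groups. In βCat-GOF mice *C1qc* was at 1865 normalized counts in βCat-GOF 4, against 877.2 to 1122 in the other 5, a gap of 0.752 of the group's range. This is also the library with *Alb* at 1202 normalized counts, and the part of that in *C1qc* was not tested. In Ctrl mice *Serping1* was at 2183 in Ctrl 2, against 3061 to 3574 in the other 5, a gap of 0.631 of the range. Ctrl 2 was also the lowest control for *C1qa*, *C1qb* and *C1qc*.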

How the results depend on the processing

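Over all genes, 323 were called higher and 228 lower in βCat-GOF adrenals. DESeq2 called 675 and 569. With shared label stems summed 140 were called lower, with the study's cut-offs 130, and without Ctrl 1, Ctrl 3 and βCat-GOF 1 the number was 346. Without the partners of those libraries (Ctrl 2, Ctrl 4 and βCat-GOF 2) 64 were called higher and 41 lower. Leaving out 1 mouse gave 195 (Ctrl 6) to 560 (βCat-GOF 1) higher and 92 (Ctrl 6) to 395 (βCat-GOF 1) lower. Fewer libraries entered the fits without mice, and the cause was not tested otherwise. Of the components, 1 was called lower. The number was 0 with shared stems summed and in both fits without 1 library of each stem, and 0 to 1 without 1 mouse, where the called gene was *C1qc* in place of *C3ar1* without βCat-GOF 4. No component was called higher in any alternative. Of the other complement genes 1 was called, against 3 by DESeq2, 2 without Ctrl 1, Ctrl 3 and βCat-GOF 1, and 1 to 4 without 1 mouse (4 without βCat-GOF 1), and *Itgax* was among them each time it was tested. Of 154 alternative values of the 8 tested components, 133 kept direction and side of the threshold, 12 lost the call, 1 gained it and 8 changed sign. The 8 sign changes are those of *C4b*, whose log2 fold change was 0.00 with all mice, lay between -0.0738 and 0.108 without 1 mouse and was -0.0938 with *C4a* added. No paired analysis was possible because the labels give no replicate numbers that the groups share.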
